A study of Sus scrofa with 9 samples.

Results

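The nuclear lamina and the LINC complex were described here through 9 genes in RNA-seq of pig testis cells, out of 22342 gene identifiers in the deposited tables. They are the lamin genes LMNA, LMNB1 and LMNB2, the lamin B receptor gene LBR, the SUN domain genes SUN1, SUN2, SUN3 and SUN5, and the KASH domain gene KASH5. Members were taken from a list of 10 symbols matched to the Ensembl pig identifiers. SYNE1 was matched to no identifier and is not analysed here. All 9 passed the filter on low counts, which left 16802 genes for testing.

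The study sequenced RNA of testis cells labelled as spermatogonia, spermatocytes and round spermatids, with 3 libraries per stage, as the RNA side of a study of chromatin folding in sperm formation. Spermatogonia are the mitotic germ cells, spermatocytes the cells in meiosis and round spermatids the haploid cells that follow. Spermatogonia and round spermatid libraries are numbered 1, 2 and 3, and spermatocyte libraries 2, 3 and 4. The table headings name the KIT receptor for spermatogonia and pachytene, a stage of meiotic prophase, for spermatocytes. No treatment, strain or genotype is given in the labels, and neither is the age of the animals or whether several were pooled.

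The lamina is a mesh of lamin filaments under the inner nuclear membrane. B-type lamins stay attached to the membrane, A-type lamins (made from LMNA) are more soluble, and LBR tethers heterochromatin and B-type lamins to the membrane. SUN proteins span the inner membrane and bind KASH proteins of the outer membrane, and together they form the LINC complex, which couples the nucleus to the cytoskeleton. In mouse meiosis SUN1 and KASH5 link telomeres to dynein and move chromosomes during pairing, and in mouse spermatids SUN3 and SUN5 serve nuclear shaping and the attachment of head to tail. Mammalian germ cells also make short isoforms of LMNA and LMNB2, which values per gene cannot separate from the somatic forms.

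On the Sscrofa11.1 assembly of RefSeq, matched by symbol, LMNA lies on chromosome 4 from 93899019 to 93927255, and LBR on chromosome 10 from 13389896 to 13416831. Chromosome 2 carries LMNB1 from 129807228 to 129862211 and LMNB2 from 76125932 to 76146564. SUN1 lies on chromosome 3 from 485980 to 532974, SUN2 on chromosome 5 from 9273136 to 9293258, SUN3 on chromosome 18 from 48484700 to 48519311 and SUN5 on chromosome 17 from 36508569 to 36528052. KASH5, listed there under its former symbol CCDC155, lies on chromosome 6 from 54476989 to 54501099.

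Library totals ran from 47963279 to 64639201 estimated counts. Between spermatogonia libraries the median chi-square per gene was 0.794 to 0.846, where counting alone gives 0.455, against 3.96 to 8.06 between spermatocyte libraries, 2.23 between round spermatids 1 and 3, and 19.1 to 20.5 between round spermatids 2 and the others. The spermatogonia libraries thus differed by far less than other replicates, and round spermatids 2 stood apart from its group. Markers of the labelled stages were present in all stages. Spermatogonial markers, 8 of 8 found, summed to 109 to 112 TPM in spermatogonia, 22.7 to 30.5 TPM in spermatocytes and 36.1 to 67.2 TPM in round spermatids. KIT itself averaged 3.31, 2.72 and 8.51 TPM and GFRA1, a receptor of spermatogonial stem cells, 0.395, 0.104 and 1.68 TPM in the same order, both highest in round spermatids. The rest of the 8, UCHL1, ZBTB16, DMRT1, STRA8, FGFR3 and RET, had their highest mean TPM in spermatogonia. On CPM, defined below, ZBTB16 was instead highest in round spermatids, at 4.32 against 3.74 in spermatogonia. Round spermatid markers, summed over 8 genes, stood at 18432 to 18628 TPM in libraries labelled spermatogonia. The sum was 4073 to 11669 TPM in spermatocytes and 37393 to 47513 TPM in round spermatids. By gene, ACRV1, SPACA1 and SPACA4 were highest in spermatogonia, ZPBP2 in spermatocytes, and TNP1, TNP2, PRM1 and PRM2 in round spermatids. Summed over 8 genes, spermatocyte markers stood at 1035 to 1083, 2509 to 3066 and 363 to 514 TPM in the same order of stages. Of these, SYCP1, SYCP2, SYCP3, HORMAD1, MEIOC and TDRD6 had their highest mean TPM in spermatocytes. DMC1 and SPO11 were highest in spermatogonia, at 60.4 and 12.1 TPM, against 28.1 and 3.21 TPM in spermatocytes. Smooth muscle markers, 9 of 9 found, summed to 21.4 to 22.6, 6.72 to 13.8 and 3143 to 4672 TPM, and stromal markers, 7 of 7 found, to 44.2 to 47.9, 19.4 to 26.0 and 1798 to 3229 TPM. Leydig cell markers, 7 of 8 found, summed to 583 to 614, 2.68 to 4.08 and 28.7 to 58.6 TPM. Sertoli cell markers, 8 of 8 found, summed to 38.4 to 40.7, 10.1 to 17.2 and 87.4 to 117 TPM, endothelial markers, 5 of 7 found, to 7.15 to 8.28, 2.32 to 7.86 and 70.1 to 123 TPM, and leukocyte markers, 7 of 7 found, to 1.55 to 1.81, 1.26 to 2.13 and 16.4 to 18.6 TPM. Below, a stage is named as its libraries are labelled.

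By edgeR's quasi-likelihood test with Benjamini-Hochberg adjustment over all tested genes, called below 0.05, 2 of 9 members were higher in spermatocytes than in spermatogonia and 5 lower, where 29.3% of all tested genes were higher and 44.0% lower. Between round spermatids and spermatocytes 2 were higher and 4 lower in the round spermatids, where 42.7% and 36.4% of all genes were. Against spermatogonia, 2 were higher and 6 lower in round spermatids, where 39.5% and 39.7% of all genes were. Median log2 fold changes of the 9 were -0.42, -0.12 and -1.60, beside -0.32, 0.19 and 0.00 for all genes. The ranges of CPM, counts scaled to 1000000 per library after its TMM factor, did not overlap for 9, 6 and 9 members, where they did not for 79.9, 78.2 and 85.2% of all genes. Counted in either direction, 7, 6 and 8 of the 9 members passed, beside 73.4, 79.2 and 79.2% of all genes.

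**Figure D1:**
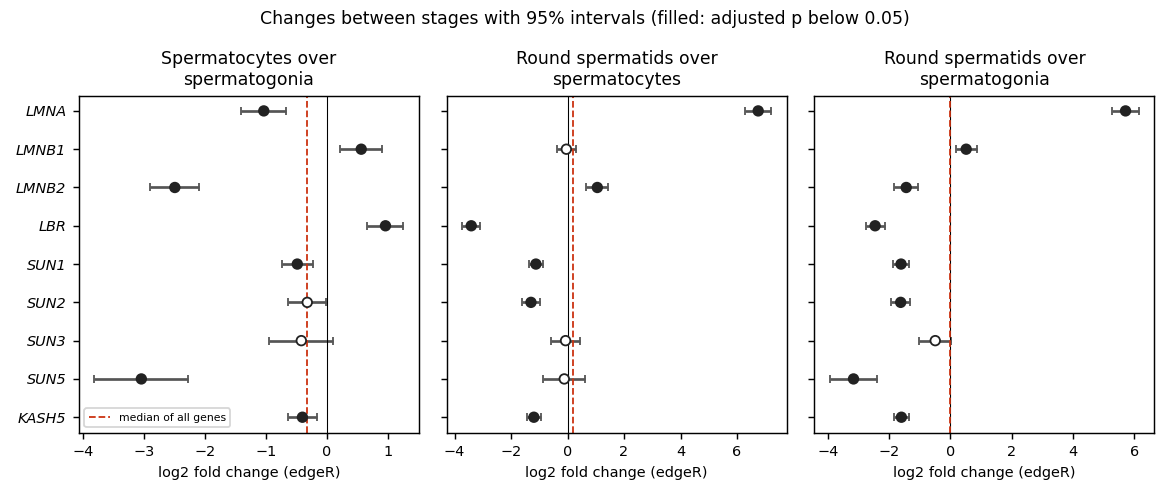
Log2 fold changes of the 9 genes in the 3 comparisons, from edgeR, with 95% intervals. Filled points have an adjusted p below 0.05 and the dashed line is the median of all tested genes, at -0.32, 0.19 and 0.00. SUN1, SUN2, SUN3 and KASH5 have intervals that reach that line in the first panel, and SUN1, SUN2 and KASH5 lie below it beyond their intervals in the others.

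LMNA was the member with the widest range. It stood at 14.2, 14.6 and 14.9 CPM in spermatogonia, 7.51, 5.63 and 8.13 CPM in spermatocytes and 665, 932 and 695 CPM in round spermatids. The 3 stages did not overlap, with spermatocytes lowest and round spermatids far above both other stages. In round spermatids LMNA was 108-fold higher than in spermatocytes (log2 fold change 6.75 ± 0.207 SE, edgeR, adjusted p = 2.15e-09) and 52.5-fold higher than in spermatogonia (5.71 ± 0.196, adjusted p = 7.73e-09). In spermatocytes it was 2.05-fold lower than in spermatogonia (-1.04 ± 0.167, adjusted p = 0.000267).

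High LMNA stood beside high markers of other cells. The smooth muscle actin gene ACTA2 averaged 1184 TPM in round spermatids, against 0.502 TPM in spermatocytes and 5.06 TPM in spermatogonia, and the collagen gene COL1A1 618 TPM, against 0.370 and 1.80 TPM. No smooth muscle or stromal marker was at 0 in every library of any stage. Sertoli, endothelial and leukocyte sums were also highest in round spermatids. The Leydig sum was not, at 28.7 to 58.6 TPM there against 583 to 614 TPM in spermatogonia. Within round spermatids LMNA was highest in library 2 on either scale, at 397 TPM against 174 and 178 TPM in libraries 1 and 3. The order of the smooth muscle sums depended on the scale, since library 2 had the highest in TPM (4672, against 3306 and 3143 TPM) and the lowest in CPM (5190, against 6569 and 6540 CPM). All 9 members had their highest round spermatid TPM in library 2, but 5 of 9 their highest CPM. The ratio of LMNA to the smooth muscle sum within a library, which does not depend on the scaling, was 0.0850 in library 2 against 0.0527 and 0.0565 in libraries 1 and 3. The part of these other cell types in the LMNA level was not tested. In bulk RNA, fewer cells of a type and less RNA per cell cannot be told apart.

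LMNB1, one of the B-type lamins, changed least among the lamins. Its level was 24.2, 25.0 and 23.5 CPM in spermatogonia, 40.5, 34.6 and 32.1 CPM in spermatocytes and 37.8, 27.0 and 39.2 CPM in round spermatids. Spermatocytes and round spermatids overlapped, and both lay above spermatogonia. It was 1.47-fold higher in spermatocytes than in spermatogonia (log2 fold change 0.56 ± 0.154, edgeR, adjusted p = 0.00742) and 1.43-fold higher in round spermatids than in spermatogonia (0.52 ± 0.154, adjusted p = 0.0102). Both calls depended on the scaling, since on log2(TPM + 1) the differences were 0.03 (limma, adjusted p = 0.874) and -0.11 (adjusted p = 0.503). With the spermatogonia libraries summed, which leaves 1 for that stage, the differences were 0.49 and 0.44. Between round spermatids and spermatocytes the difference was -0.04, with a 95% interval from -0.39 to 0.30 (edgeR, adjusted p = 0.803). Without normalization factors that difference was 0.40 and passed (adjusted p = 0.0182).

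LMNB2, the other B-type lamin gene, was highest in spermatogonia. Its 3 values were 72.8, 69.4 and 71.2 CPM in spermatogonia, 12.2, 9.67 and 16.1 CPM in spermatocytes and 23.3, 29.7 and 25.7 CPM in round spermatids. The stages did not overlap. It was 5.63-fold lower in spermatocytes than in spermatogonia (log2 fold change -2.49 ± 0.181, edgeR, adjusted p = 1.73e-06) and 2.71-fold lower in round spermatids than in spermatogonia (-1.44 ± 0.174, adjusted p = 2.37e-05). It was 2.08-fold higher in round spermatids than in spermatocytes (1.05 ± 0.175, adjusted p = 0.000234).

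**Figure D2:**
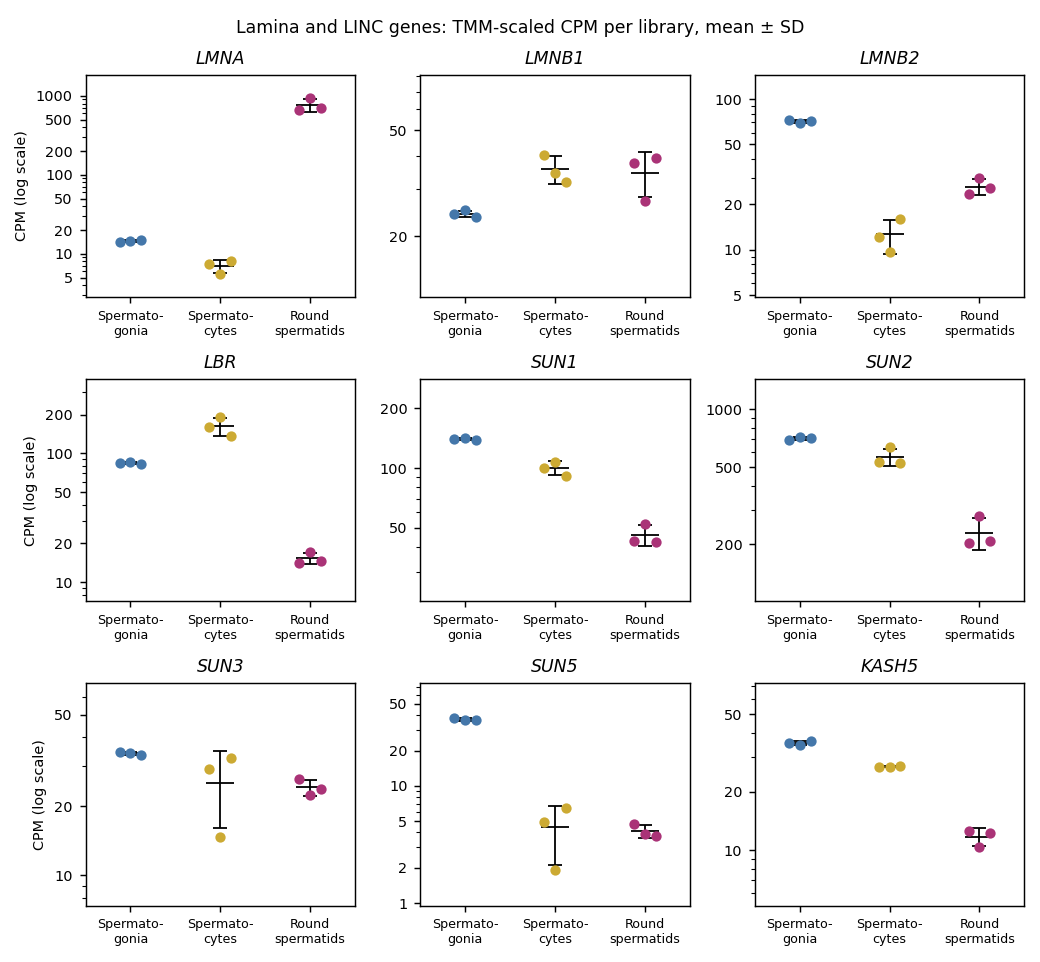
TMM-scaled CPM on a log axis for each of the 9 genes, by stage. Points are libraries in order of their number, the horizontal line is the mean and bars are SD (n = 3). LMNA is highest in round spermatids, LMNB2 and SUN5 are highest in spermatogonia, LBR is highest in spermatocytes, and SUN1, SUN2 and KASH5 are lowest in round spermatids.

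Because a ratio of genes within a library does not depend on the scaling, the make-up of the lamins was read from TPM, which is per length. LMNB2 and LMNB1 held 46.1 ± 1.05% and 41.0 ± 1.07% of summed lamin TPM in spermatogonia, and LMNA 13.0 ± 0.435% (SD, n = 3). LMNB1 alone held 80.6 ± 4.49% in spermatocytes, with 10.97 ± 3.03% for LMNB2 and 8.44 ± 1.49% for LMNA. LMNA held 89.7 ± 2.62% in round spermatids, with 8.03 ± 2.53% for LMNB1 and 2.26 ± 0.110% for LMNB2. A different lamin gene thus led at each stage, by wide margins in spermatocytes and round spermatids and narrowly in spermatogonia, where the ratio of LMNB2 to LMNB1 was 1.06 to 1.16. The ratio of LMNA to LMNB1 was 0.307 to 0.334 in spermatogonia, 0.0857 to 0.134 in spermatocytes and 9.26 to 18.2 in round spermatids.

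**Figure D3:**
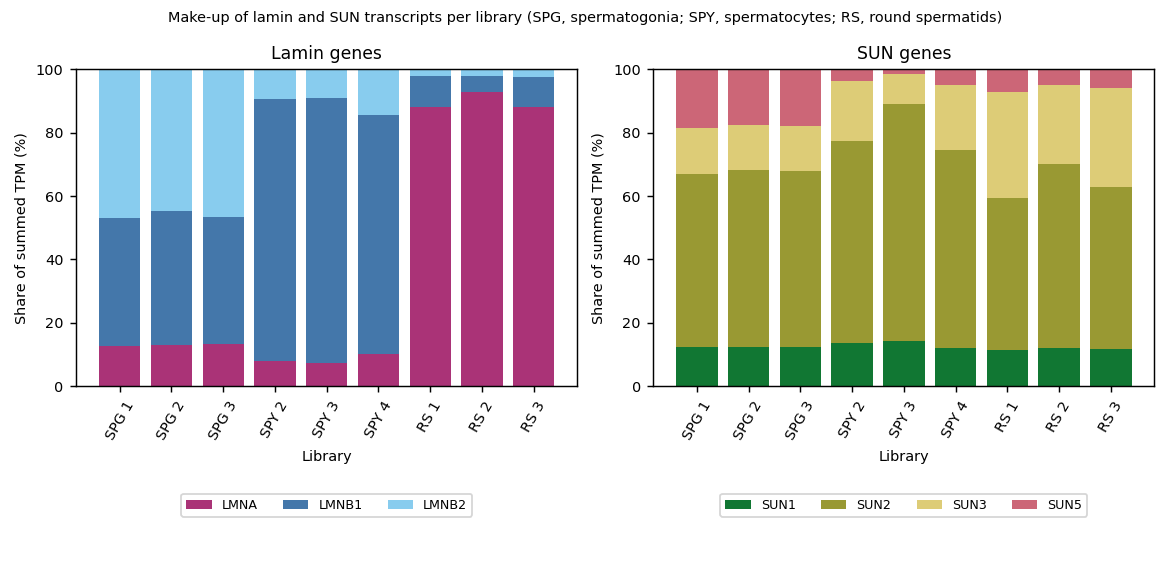
Share of each gene in the summed TPM of the lamin genes (left) and of the SUN genes (right), in percent, with 1 bar per library. LMNB1 fills most of the spermatocyte bars and LMNA most of the round spermatid bars, while SUN2 is the largest part of the SUN total in all 9 libraries.

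LBR, the receptor that holds heterochromatin at the membrane, was the member that peaked in spermatocytes. It stood at 83.8, 85.1 and 82.4 CPM in spermatogonia, 162, 190 and 137 CPM in spermatocytes and 14.1, 17.1 and 14.6 CPM in round spermatids. The stages did not overlap. In round spermatids LBR was 10.6-fold lower than in spermatocytes (log2 fold change -3.41 ± 0.145, edgeR, adjusted p = 1.21e-08), a value under which 0.851% of all tested genes lay. It was also 5.48-fold lower in round spermatids than in spermatogonia (-2.45 ± 0.139, adjusted p = 1.19e-07). The rise in spermatocytes over spermatogonia was 1.94-fold (0.96 ± 0.133, adjusted p = 9.40e-05), and on log2(TPM + 1) it was 0.41 and did not pass (limma, adjusted p = 0.128). Set against LBR within each library, LMNA was 0.131 to 0.141 times its TPM in spermatogonia, 0.0231 to 0.0463 times in spermatocytes and 36.5 to 42.5 times in round spermatids. Low LBR and high LMNA stood side by side in the round spermatid libraries, where smooth muscle and stromal markers were also high.

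SUN2, one of the broadly expressed SUN proteins, was the most abundant SUN gene in every library on TPM. Its level was 694, 719 and 708 CPM in spermatogonia, 532, 634 and 529 CPM in spermatocytes and 202, 280 and 207 CPM in round spermatids. In round spermatids it was 2.46-fold lower than in spermatocytes (log2 fold change -1.30 ± 0.143, edgeR, adjusted p = 9.96e-06) and 3.07-fold lower than in spermatogonia (-1.62 ± 0.144, adjusted p = 2.29e-06). Spermatocytes and spermatogonia did not overlap, but the difference of -0.32 did not pass (adjusted p = 0.0587). It passed without spermatocytes replicate 3 (-0.41, adjusted p = 0.0344) and without round spermatids replicate 2 (-0.32, adjusted p = 0.00513), and also with limma-voom, without normalization factors (-0.75) and on log2(TPM + 1) (-0.85).

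SUN1, the SUN protein of meiotic telomere attachment, followed SUN2 closely. It stood at 140, 141 and 139 CPM in spermatogonia, 101, 108 and 91.5 CPM in spermatocytes and 42.9, 52.4 and 42.5 CPM in round spermatids. The stages did not overlap, and the order was the same as for SUN2. It was 2.18-fold lower in round spermatids than in spermatocytes (log2 fold change -1.12 ± 0.115, edgeR, adjusted p = 5.68e-06), and 3.05-fold lower than in spermatogonia (-1.61 ± 0.116, adjusted p = 5.36e-07). The ratio of SUN2 to SUN1 on TPM was 4.42 to 4.57 in spermatogonia, 4.72 to 5.26 in spermatocytes and 4.22 to 4.79 in round spermatids.

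KASH5, the meiotic partner that recruits dynein, had the same order of stages. Its level was 35.6, 34.6 and 36.2 CPM in spermatogonia, 26.8, 26.7 and 26.9 CPM in spermatocytes and 12.6, 10.4 and 12.2 CPM in round spermatids. The ratio of KASH5 to SUN1 on TPM was 0.917 to 0.977 in spermatogonia, 0.928 to 1.10 in spermatocytes and 0.740 to 1.10 in round spermatids, ranges that overlap. KASH5 was 2.29-fold lower in round spermatids than in spermatocytes (log2 fold change -1.19 ± 0.111, edgeR, adjusted p = 2.61e-06) and 3.02-fold lower than in spermatogonia (-1.60 ± 0.111, adjusted p = 4.28e-07).

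The differences of these genes between spermatocytes and spermatogonia were small. SUN1 was 1.40-fold lower in spermatocytes (log2 fold change -0.49 ± 0.113, edgeR, adjusted p = 0.00288) and KASH5 1.32-fold lower (-0.40 ± 0.109, adjusted p = 0.00668). The median of all tested genes was -0.32 in this comparison. Read against that median the difference was -0.16 for SUN1, with a 95% interval from -0.41 to 0.09, and -0.08 for KASH5, with an interval from -0.32 to 0.16. With RLE size factors, another scaling, neither passed (adjusted p = 0.0635 for SUN1 and 0.0958 for KASH5).

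SUN3, a SUN protein of spermatids, changed least among the SUN genes on CPM. It stood at 34.5, 34.1 and 33.4 CPM in spermatogonia, 29.0, 14.8 and 32.4 CPM in spermatocytes and 26.2, 22.5 and 23.8 CPM in round spermatids. Spermatogonia lay above both other stages, which overlapped. None of its 3 comparisons passed in edgeR fitted over all 9 libraries with TMM factors. The differences were -0.42 for spermatocytes over spermatogonia (95% interval -0.94 to 0.10, adjusted p = 0.129), -0.07 for round spermatids over spermatocytes (-0.59 to 0.45, adjusted p = 0.790) and -0.49 for round spermatids over spermatogonia (-1.01 to 0.03, adjusted p = 0.0760). The low library was spermatocytes 3. Without spermatocytes replicate 3 SUN3 was lower in round spermatids than in spermatocytes (-0.35, adjusted p = 0.0160) and than in spermatogonia (-0.50, adjusted p = 0.00128). Without spermatocytes replicate 4 it was lower in spermatocytes than in spermatogonia (-0.63, adjusted p = 0.0375). Fitted with only round spermatids and spermatogonia, SUN3 was lower in round spermatids (-0.45, edgeR, adjusted p = 0.00107), and without normalization factors it was lower in spermatocytes than in spermatogonia (-0.82, adjusted p = 0.0149). On log2(TPM + 1) SUN3 was lower in spermatocytes than in spermatogonia (-0.999, limma, adjusted p = 0.0101) and in round spermatids than in spermatogonia (-1.08, adjusted p = 0.00518).

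SUN5, the SUN protein of the sperm head-tail junction, was high in the libraries labelled spermatogonia. Its level was 37.8, 36.1 and 36.4 CPM in spermatogonia, 4.96, 1.90 and 6.51 CPM in spermatocytes and 4.74, 3.85 and 3.77 CPM in round spermatids. Spermatogonia stood far above both other stages, which overlapped. It was 8.23-fold lower in spermatocytes than in spermatogonia (log2 fold change -3.04 ± 0.345, edgeR, adjusted p = 2.47e-05) and 8.93-fold lower in round spermatids than in spermatogonia (-3.16 ± 0.346, adjusted p = 1.13e-05). Between round spermatids and spermatocytes the difference was -0.12 (95% interval -0.86 to 0.63, adjusted p = 0.758), and without spermatocytes replicate 3 it was -0.49 (adjusted p = 0.0179).

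The order of stages for SUN5 was not that of the round spermatid markers, whose sum was highest in round spermatids. Of the 8 markers, 3 were also highest in spermatogonia, namely SPACA4, ACRV1 and SPACA1, which were singled out after their values were seen. The sperm surface gene SPACA4 averaged 781 TPM in spermatogonia, 28.1 TPM in spermatocytes and 48.3 TPM in round spermatids, and the acrosome gene ACRV1 343, 80.3 and 95.7 TPM. Within spermatocytes the library with the lowest SUN3 and SUN5, replicate 3, also had the lowest sum of round spermatid markers, 4073 TPM, against 10951 and 11669 TPM in replicates 2 and 4. The part of late germ cells in the SUN3 and SUN5 levels was not tested. On TPM the ratio of SUN5 to SUN3 was 1.23 to 1.27 in spermatogonia, 0.149 to 0.233 in spermatocytes and 0.184 to 0.210 in round spermatids.

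SUN2 held 55.4 ± 0.739% of summed SUN TPM in spermatogonia, 67.2 ± 6.79% in spermatocytes and 52.3 ± 5.05% in round spermatids. SUN1 held 12.3 ± 0.0685%, 13.3 ± 1.10% and 11.7 ± 0.351% in the same order. The spermatid pair differed, with SUN5 at 18.0 ± 0.499%, 3.31 ± 1.74% and 5.94 ± 1.03%, and SUN3 at 14.3 ± 0.214%, 16.2 ± 5.997% and 29.99 ± 4.44%. Summed SUN TPM was 454 ± 5.21 in spermatogonia, 208 ± 13.3 in spermatocytes and 107 ± 43.6 in round spermatids. Unlike the shares, these sums depend on the scaling. The log2 offset of TPM from CPM, centred over the 9 libraries, was 0.37 to 0.39 in spermatogonia and -0.20 to -0.05 in spermatocytes. In round spermatids 1, 2 and 3 it was -0.46, 0.25 and -0.49.

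**Figure D4:**
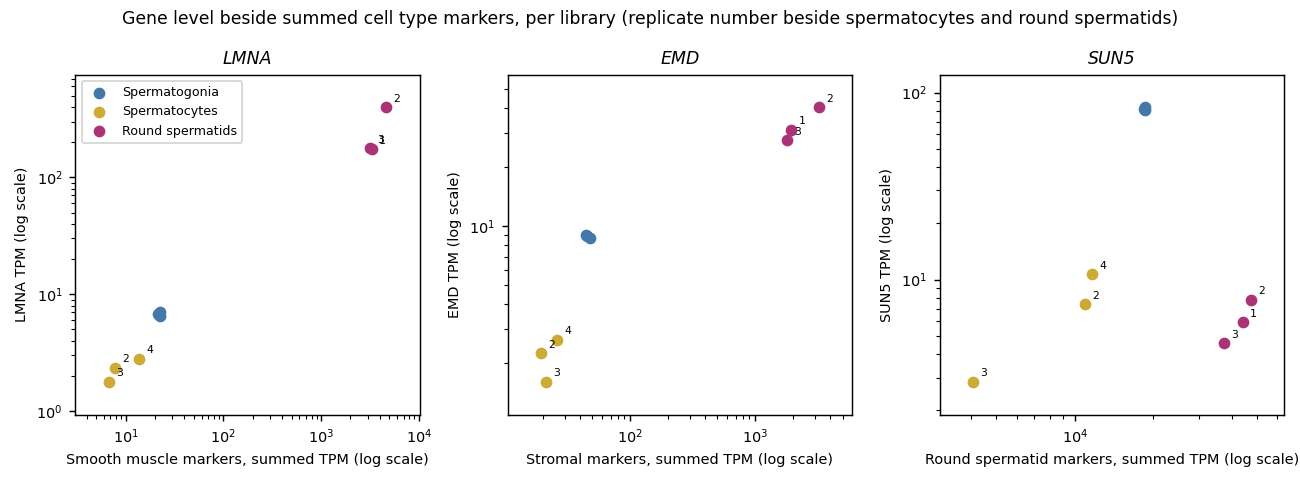
TPM of LMNA, of the emerin gene EMD and of SUN5 (y axes, log scale) beside the summed TPM of smooth muscle, stromal and round spermatid markers (x axes, log scale), with 1 point per library. LMNA and EMD are highest in the round spermatid libraries, where the smooth muscle and stromal sums are highest, while SUN5 is highest in spermatogonia, whose sum of round spermatid markers lies below that of round spermatids.

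On TPM, which allows levels of different genes to be set side by side, SUN2 was the most abundant member in spermatogonia at 251 TPM and in spermatocytes at 140 TPM, and LMNA in round spermatids at 250 TPM. In spermatogonia the order after SUN2 was SUN5, SUN3, SUN1, KASH5, LBR, LMNB2, LMNB1 and LMNA, and no neighbours overlapped. In spermatocytes LBR came second at 67.8 TPM, and SUN3, KASH5 and SUN1 followed with overlapping ranges. LMNB1 came next at 20.8 to 24.1 TPM, inside the SUN3 range of 19.2 to 45.9 TPM. SUN5, LMNB2 and LMNA stood last at 6.98, 3.01 and 2.32 TPM, each overlapping the next. In round spermatids SUN2 came second at 57.2 TPM and SUN3 at 30.7 TPM followed, while LBR, LMNB2 and SUN5 stood last with overlapping ranges at 6.31, 6.14 and 6.10 TPM.

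Other genes of the nuclear envelope were described from 6 short lists, of which 38 of 42 genes were found and tested. In spermatocytes over spermatogonia 15 were higher and 17 lower, in round spermatids over spermatocytes 13 and 17, and in round spermatids over spermatogonia 10 and 16. Among all tested genes 29.3% were higher and 44.0% lower in the first comparison, 42.7% and 36.4% in the second and 39.5% and 39.7% in the third, shares that also stand behind the counts of the short lists. Medians of the 38 were -0.01, -0.31 and -0.12, beside -0.32, 0.19 and 0.00 for all genes.

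Among 12 genes for proteins that bind the lamina or sit in the inner membrane, 3 rose and 6 fell in spermatocytes over spermatogonia, 6 rose and 4 fell in round spermatids over spermatocytes, and 5 rose and 4 fell in round spermatids over spermatogonia. EMD encodes emerin, an inner membrane protein that binds lamin A. It averaged 117 ± 13.1 CPM in round spermatids, against 7.23 ± 1.48 CPM in spermatocytes (log2 fold change 4.01) and 20.7 ± 0.454 CPM in spermatogonia (2.50), and it fell by 1.52 in spermatocytes over spermatogonia. TMPO, which encodes the lamina-associated LAP2 proteins, rose by 1.84 in spermatocytes over spermatogonia and by 1.36 in round spermatids over spermatogonia. NEMP1, an inner membrane protein that binds emerin, rose by 1.01 in spermatocytes over spermatogonia and fell by 2.58 in round spermatids over spermatocytes, the same directions as LBR, and it fell by 1.57 in round spermatids over spermatogonia. TMEM201, a membrane protein that binds the LINC complex, fell by 2.29 in spermatocytes over spermatogonia and rose by 1.94 in round spermatids over spermatocytes. LEMD3, a lamina-binding protein of the LEM family, fell by 0.82 in round spermatids over spermatocytes, and ANKLE2, another LEM protein, fell by 0.94 in round spermatids over spermatogonia. The LEMD3 call was lost without normalization factors (-0.34, edgeR, adjusted p = 0.167).

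Of 4 lamin-processing enzymes found, 2 rose and 2 fell in spermatocytes over spermatogonia, 1 rose and 2 fell in round spermatids over spermatocytes, and 0 rose and 3 fell in round spermatids over spermatogonia. The count of 0 from edgeR was 1 at an unadjusted p below 0.05, namely ZMPSTE24 (0.30, adjusted p = 0.0613). DESeq2 called 1, limma-voom 0 and limma on TPM 0. ZMPSTE24, the protease that matures prelamin A, stood at 36.5 ± 5.53 CPM in spermatocytes against 11.9 ± 0.149 CPM in spermatogonia (log2 fold change 1.62). It fell by 1.31 in round spermatids over spermatocytes, while LMNA rose. RCE1, which cleaves the end of farnesylated lamins, fell by 1.85 in spermatocytes over spermatogonia and by 1.32 in round spermatids over spermatogonia, and its rise of 0.52 in round spermatids over spermatocytes was lost in 12 of 20 alternatives, among them without spermatocytes replicate 3 (0.48) or 4 (0.41) and without round spermatids replicate 2 (0.33). FNTB, a farnesyltransferase subunit, fell by 0.42 in spermatocytes and by 0.59 in round spermatids over spermatogonia, and the first of these was lost in 6 of 20 alternatives, RLE size factors among them. ICMT, which methylates farnesylated lamins, fell by 0.69 in round spermatids over spermatocytes, a call lost without normalization factors (-0.24, edgeR, adjusted p = 0.0617). Its rise of 0.29 in spermatocytes over spermatogonia was kept in 10 of 20 alternatives. It turned to -0.13 without normalization factors and -0.23 on log2(TPM + 1), and did not pass with spermatogonia libraries summed (adjusted p = 0.412) or without any 1 of spermatogonia replicates 1, 2 and 3, spermatocytes replicates 2 and 3 and round spermatids replicate 3 (edgeR, adjusted p from 0.0556 to 0.129).

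All 4 further LINC genes were found. SYNE3, an outer membrane KASH protein, averaged 8.77 ± 0.602 CPM in round spermatids, against 0.348 ± 0.112 CPM in spermatocytes (log2 fold change 4.65) and 1.03 ± 0.110 CPM in spermatogonia (3.08), and it fell by 1.56 in spermatocytes over spermatogonia. This order of stages was that of LMNA and EMD, and of the smooth muscle and stromal markers. SPAG4, a SUN protein of the spermatid manchette also known as SUN4, fell by 1.89 in spermatocytes over spermatogonia, rose by 1.24 in round spermatids over spermatocytes, and was lower by 0.65 on the log2 scale in round spermatids than in spermatogonia, a call lost in 8 of 20 alternatives, 6 of which each leave out 1 spermatogonia or round spermatid library. SYNE2, a giant KASH protein, rose by 0.95 in spermatocytes over spermatogonia, a call lost on TPM, without normalization factors and with spermatogonia libraries summed. Its fall of 0.73 in round spermatids over spermatocytes was lost on TPM, without normalization factors, without spermatocytes replicate 4 (-0.34, adjusted p = 0.0939) and without round spermatids replicate 1 or 3 (adjusted p = 0.0604 and 0.0610). Its level in round spermatids against spermatogonia was 34.2 ± 1.33 and 29.3 ± 2.67 CPM (adjusted p = 0.446). Fitted with only these 2 stages, SYNE2 was higher in round spermatids (0.27, edgeR, adjusted p = 0.0433). SYNE4 lay under 1 CPM throughout, at 0.442 ± 0.0395 CPM in spermatogonia, 0.0196, 0.109 and 0.172 CPM in spermatocytes and 0.0782 ± 0.0249 CPM in round spermatids, and was lower in both later stages than in spermatogonia (-2.11 and -2.46). Without spermatocytes replicate 4 the first of these was -2.78.

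Of 6 listed genes of meiotic telomere attachment 4 were found. SPDYA, an activator of CDK2 at telomeres, TERB2, of the complex that ties telomeres to the inner membrane, and TERF1, a telomere-binding protein, rose by 1.65, 1.25 and 1.67 in spermatocytes over spermatogonia and fell by 1.64, 3.03 and 0.62 in round spermatids over spermatocytes. For SUN1 and KASH5, which act with them in mouse, the differences in spermatocytes over spermatogonia were -0.49 and -0.40. Without normalization factors TERF1 was -0.18 in round spermatids over spermatocytes and did not pass (edgeR, adjusted p = 0.269). TERB2 fell by 1.78 in round spermatids over spermatogonia, TERF1 rose by 1.05 there and SPDYA stood at 237 ± 28.2 against 235 ± 4.44 CPM (adjusted p = 0.936). The SPDYA result depended on the scaling, since on log2(TPM + 1) the difference was -0.61 and passed (limma, adjusted p = 0.00319). CDK2 passed in none of the 3 comparisons in edgeR over all 9 libraries, at 37.5 ± 3.17, 37.2 ± 6.96 and 33.8 ± 18.4 CPM through the stages. Without round spermatids replicate 3 it was lower in round spermatids than in spermatocytes (-0.67, adjusted p = 0.0143) and than in spermatogonia (-0.69, adjusted p = 0.0131). On log2(TPM + 1) with all libraries it was also lower in round spermatids than in spermatogonia (-0.83, limma, adjusted p = 0.0324).

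Dynein and its partners, the motor that KASH5 recruits, were mixed. Of 7 genes 4 rose and 3 fell in spermatocytes over spermatogonia, 1 rose and 4 fell in round spermatids over spermatocytes, and 3 rose and 3 fell in round spermatids over spermatogonia. PAFAH1B1, the dynein regulator LIS1, rose by 1.34 and NDEL1, its partner, by 1.13 in spermatocytes over spermatogonia, while the heavy chain gene DYNC1H1 fell by 1.05 and NDE1, a paralog of NDEL1, fell by 0.67. NDE1 rose by 1.41 in round spermatids over spermatocytes, the intermediate chain gene DYNC1I2 fell by 1.46 and PAFAH1B1 fell by 1.33. In round spermatids over spermatogonia DYNC1H1 fell by 2.01 and the dynactin gene DCTN1 fell by 1.71, while the light intermediate chain gene DYNC1LI1 rose by 0.99 and NDEL1 by 0.86, both lost on TPM.

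Of 8 listed genes for head-tail coupling and the spermatid nuclear envelope 7 were found, and 2 rose and 3 fell in spermatocytes over spermatogonia, 3 rose and 3 fell in round spermatids over spermatocytes, and 0 rose and 3 fell in round spermatids over spermatogonia, where edgeR gave 0 higher also at an unadjusted p below 0.05, and DESeq2, limma-voom and limma on TPM called 0. DPY19L2, which anchors the acrosome to the inner nuclear membrane in mouse and human, stood at 184 ± 15.4 CPM in round spermatids, against 889 ± 105 CPM in spermatocytes (log2 fold change -2.27) and 671 ± 9.60 CPM in spermatogonia (-1.86). Its rise of 0.40 in spermatocytes over spermatogonia turned to -0.13 on log2(TPM + 1). CNTLN, a centriolar linker, rose by 2.19 in spermatocytes over spermatogonia and fell by 2.10 in round spermatids over spermatocytes. ODF1, an outer dense fibre protein, and CCDC42, of the coupling apparatus, fell by 1.49 and 1.66 in spermatocytes over spermatogonia and rose by 1.89 and 1.13 in round spermatids over spermatocytes. CNTROB, a centriole protein, fell by 1.89 in round spermatids over spermatogonia. SUN5, by comparison, was low in both later stages.

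**Figure D5:**
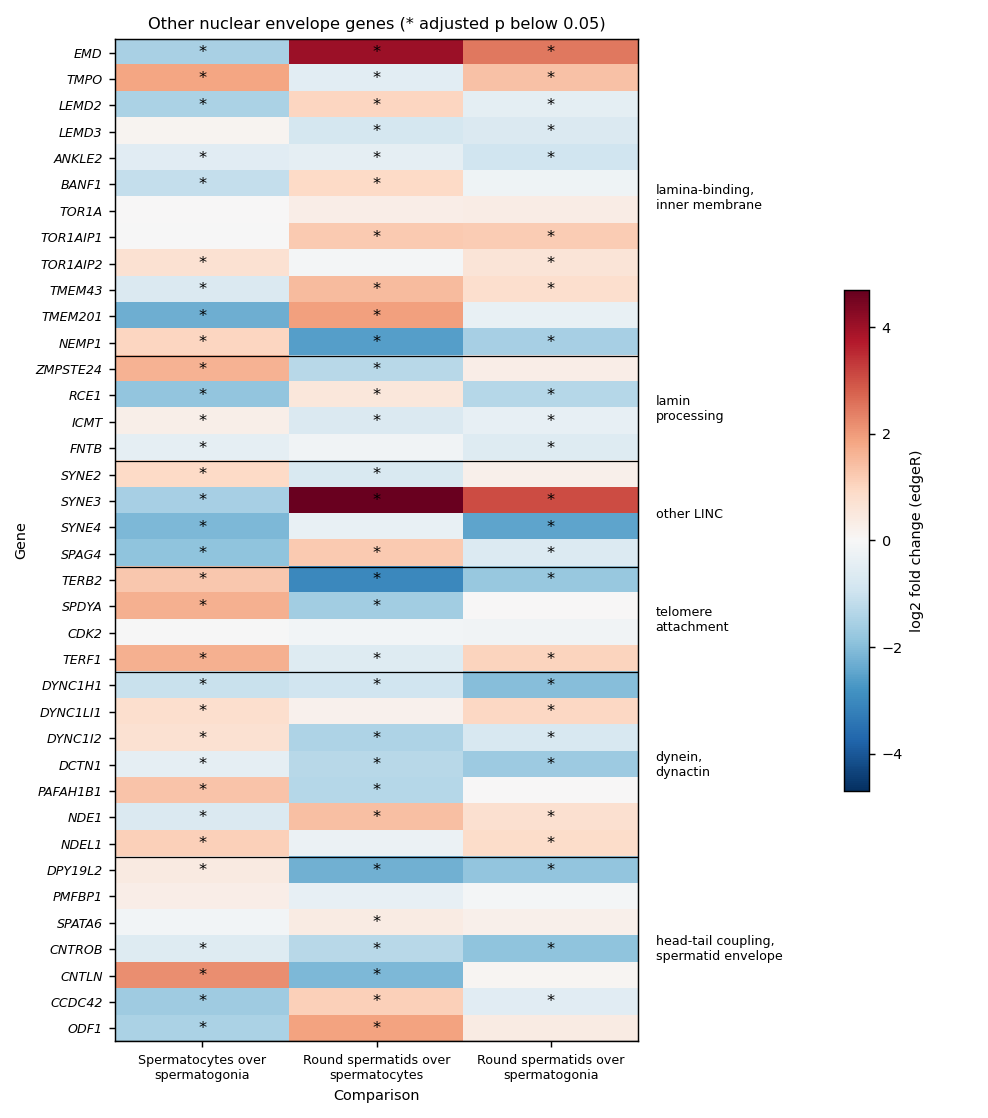
Log2 fold changes from edgeR of the 38 other nuclear envelope genes, by list (rows) and comparison (columns), with red for higher in the later stage and blue for lower. Stars mark an adjusted p below 0.05. EMD and SYNE3 are the strongest rises in both round spermatid columns, and TERB2 is the strongest fall in round spermatids over spermatocytes.

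Genes with the profile most like each member were sought among 11872 genes with a symbol and a mean of at least 1 CPM, by the root mean square difference of centred log2 CPM over the 9 libraries. LMNA was nearest to EPHB3, an ephrin receptor gene, at a difference of 0.11, then to the laminin gene LAMB2 and the immediate early gene FOSB. LMNB1 was nearest to PSMD7, SARNP and PPM1D, and LMNB2 to ORAI2, FAM234B and HIPK4. LBR was nearest to TDRKH, a tudor protein of the piRNA pathway, at 0.10, then to GIN1 and GADL1. SUN2 was nearest to RAE1, an mRNA export factor of the nuclear pore, at 0.04, then to POLDIP3 and ITGA10. SUN1 was nearest to MRPL54, with RRP1B also among its 3 nearest, and KASH5 was nearest to TMEM175, LRGUK and CLEC16A. SUN3 was nearest to ANKEF1, MAP2 and DCDC2C. The nearest genes to SUN5 were FGFR3, DCST1 and PLAC8L1, at differences of 0.30, 0.30 and 0.33.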

How the data were processed

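Per the labels' protocols, total RNA was sequenced in pairs from a directional kit on an Illumina HiSeq. The submitters' processing notes name the build Sscrofa11.1 and bcl2fastq. The quantifier, its annotation and any use of strand in counting were not given in the sources used here, so overlapping and antisense genes are uncertain. The authors deposited estimated counts and TPM per gene. In the deposited values, over 16193 genes above 0 in all libraries, each estimated count equals its TPM times a gene factor and a library factor (largest log2 deviation 5.39e-14). The TPM columns sum to less than a full scale, with 3.19 to 11.8% left out. Of 15 library columns 9 were matched to samples by their headings, which for spermatogonia and spermatocytes rests on the meaning of the heading, and 6 were not used. Since no animals are named in the labels, p-values cover only the spread between libraries, which may be technical.

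Estimated counts were rounded, filtered with filterByExpr, scaled with TMM (factors 0.774 to 1.26) and fitted over all 9 libraries with edgeR 4.0.16 under R 4.3.3 (glmQLFit and glmQLFTest, common dispersion 0.0316). Adjusted p-values are Benjamini-Hochberg over 16802 genes, called below 0.05. SE is the size of the log2 fold change over the square root of F. Alternatives used DESeq2 1.42.0, limma 3.58.1 (voom, and log2 TPM with a pseudocount of 1 or 0.1), other scalings, no filter, a replicate block and libraries left out. Named genes are all members, up to 2 called genes with the largest rise and up to 2 with the largest fall per list and comparison, all found LINC and telomere genes, and the 3 nearest profiles of each member, of which 1 is not reported here. The members and lists were chosen with earlier results of these data known. Genes under 1 CPM carry the largest counting error.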

Additional observations from a re-analysis of the deposited data

How the results depend on the processing

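Over 20 alternatives the calls of LMNA, LMNB2, LBR, SUN1, SUN2 and KASH5 in both round spermatid comparisons were kept, as were those of SUN5 in both comparisons with spermatogonia and of LMNA and LMNB2 in spermatocytes over spermatogonia. Scaling moved the median of all genes. In round spermatids over spermatocytes it was 0.19 with TMM, 0.64 with no scaling factors, 0.08 with RLE size factors and -0.00802 with the 50 most abundant genes left out of the scaling. In spermatocytes over spermatogonia it was -0.32, -0.74, -0.14 and -0.09. Members higher there numbered 2, but 1 without normalization factors or with spermatogonia libraries summed, and 0 with limma on TPM at a pseudocount of 1 or 0.1 (0 also at an unadjusted p below 0.05). Members lower numbered 5, but 3 with RLE size factors, without the 50 most abundant genes or with no filter. They numbered 7 without normalization factors and on TPM at either pseudocount, and 6 with limma-voom. Other envelope genes higher numbered 15, but 9 and 8 on TPM. In round spermatids over spermatocytes 17 other envelope genes were lower, but 10 without normalization factors. In round spermatids over spermatogonia 2 members were higher, but 1 on TPM at either pseudocount and 1 with summed libraries, and 10 other envelope genes were higher, but 4 on TPM at either pseudocount. In that comparison 6 members were lower, but 7 on TPM, and 16 other envelope genes, but 23 on TPM, at either pseudocount. Calls over all genes were 40.0% higher in spermatocytes over spermatogonia, but 26.8% without normalization factors and 23.4 and 22.6% on TPM. They were 54.0% higher in round spermatids over spermatocytes, but 65.7% without normalization factors, and 49.9% in round spermatids over spermatogonia, but 34.9 and 34.7% on TPM. All genes called higher in spermatocytes over spermatogonia numbered 4930, but 2604 and 2633 on TPM and 3230 with summed libraries.

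Some log2 fold changes turned sign, most of them uncalled. In spermatocytes over spermatogonia CDK2 (-0.01) was 0.17 with RLE size factors and with DESeq2, 0.22 without the 50 most abundant genes, 0.21 with no filter, 0.19 with only the 2 stages fitted, and -0.15 to 0.12 with single libraries left out. DPY19L2 (0.40) was -0.0189 without normalization factors and -0.13 on TPM at either pseudocount, and ICMT (0.29) was -0.13, -0.23 and -0.24. Without normalization factors, in round spermatids over spermatocytes, LMNB1 was 0.40, SUN3 0.37, SUN5 0.32, CDK2 0.30 and SYNE4 0.0936, and limma-voom gave 0.0325 for SUN5. With single libraries left out LMNB1 ranged from -0.14 to 0.10, SUN3 from -0.35 to 0.13, SUN5 from -0.49 to 0.25, CDK2 from -0.67 to 0.14 and SYNE4 from -0.85 to 0.31. On the comparison of round spermatids with spermatogonia LMNB1 was -0.11 on TPM at either pseudocount and SYNE2 -0.30 and -0.38. SPDYA was -0.61 there at either pseudocount, which passed (limma, adjusted p = 0.00319 and 0.00347), and -0.0661 with summed libraries. With single libraries left out CDK2 ranged there from -0.69 to 0.13 and SPDYA from -0.0622 to 0.11. Other than where the scaling itself differs, the cause was not tested.

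Same-numbered libraries had correlations of deviations from -0.0483 to 0.0283, and other-numbered libraries of different stages from -0.0903 to 0.0930. These values cannot decide whether replicate numbers pair the libraries. Deviations were taken from the mean of only 3 libraries per stage, and the spermatogonia libraries differed by far less than other replicates. With a replicate block, members lower in spermatocytes over spermatogonia numbered 6 against 5, with SUN3 added (adjusted p = 0.0477), and in round spermatids over spermatocytes SUN3 was 0.16, SUN5 0.27, CDK2 0.10 and SYNE4 0.29. With the block both SYNE2 calls were lost, in spermatocytes over spermatogonia (0.52, edgeR, adjusted p = 0.0534) and in round spermatids over spermatocytes (-0.30, adjusted p = 0.215), as was the rise of RCE1 in round spermatids over spermatocytes (0.44, adjusted p = 0.0655).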
